A study of Mus musculus with 2 samples.

Results

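The genes described here take iron into the cell, move it between compartments, store it, export it and sense it: Slc40a1, Tfrc, Steap3, Slc11a2, Slc11a1, Slc25a37, Fth1, Ftl1, Aco1 and Ireb2. They were measured in KLS cells, a bone marrow fraction of stem and progenitor cells that was sorted as lineage-negative, c-kit+ and Sca+. The 10 genes were listed by name, and every probe set that the platform annotation assigns to them was taken, 27 of the 45101 on the array. Of these, 20 were annotated to 1 gene, 4 were shared with other genes and 3 were Tfrc control probe sets. Ftl1 had no probe set of its own, which left 9 of the 18193 genes measured by their own probe sets.

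The study held 2 Affymetrix arrays, 1 from mice with conditional inactivation of TIF1γ, labelled TIF1γ Δ/Δ, and 1 from wild type mice. TIF1γ, encoded by Trim33, is a transcriptional regulator of the TIF1 family, and the series set the genotypes side by side to describe what its loss does in haematopoietic stem cells. Both samples were sorted by these markers and labelled by a two-cycle protocol that started from 25 ng of total RNA. The sources used here do not give the Cre line, the age and sex of the mice or the number of mice behind each sample. With 1 array a genotype there was no replicate, so no value has an error between animals and no test between genotypes could be made. Differences are log2 signal in TIF1γ Δ/Δ cells minus log2 signal in wild type cells, centred on the median of the probe sets that both arrays measured (-0.024 before centring). A probe set counted as measured when its signal reached the array's median, which was 11.7 in TIF1γ Δ/Δ and 14.4 in wild type cells. A signal under this floor was replaced by it, and the fold is then given as at least that size. Signals of different probe sets are not on a common scale, so a level, or a sum over a list, is set only against the same probe sets on the other array.

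Most cells take up iron bound to transferrin, which the transferrin receptor carries into endosomes, where the metal is reduced and pumped to the cytosol. Iron that is not used at once is held in ferritin, a shell of heavy and light chains, and leaves the cell through ferroportin, the product of Slc40a1. In bone marrow the largest flux runs through erythroid precursors, which build haemoglobin, and through macrophages, which break down old red cells and return their iron to plasma. The balance is set largely after transcription, by iron regulatory proteins that bind stem-loops in the mRNAs of ferritin, ferroportin and the transferrin receptor. An expression array reads mRNA and says nothing of the translation that these proteins control.

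Upstream sequences were available for 7 of the 10 genes from RefSeq (build GRCm38.p6). Bases before the start site and outside the annotated gene are printed for Steap3 and Slc11a1, which had the largest positive and the largest negative difference among these 7, and for Ftl1, the next lower of them. The window of Steap3 lies at chr1:120271082-120271330 on the minus strand, that of Slc11a1 at chr1:74374953-74375013 on the plus strand and that of Ftl1 at chr7:45459887-45460136 on the minus strand, each written 5′ to 3′ with a motif match in capitals.
Steap3: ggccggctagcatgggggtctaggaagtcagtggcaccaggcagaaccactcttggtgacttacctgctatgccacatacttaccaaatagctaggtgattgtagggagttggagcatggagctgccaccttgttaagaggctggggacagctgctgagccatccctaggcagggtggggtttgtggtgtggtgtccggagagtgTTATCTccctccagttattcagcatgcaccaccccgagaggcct
Slc11a1: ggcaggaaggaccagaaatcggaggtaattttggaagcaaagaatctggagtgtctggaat
Ftl1: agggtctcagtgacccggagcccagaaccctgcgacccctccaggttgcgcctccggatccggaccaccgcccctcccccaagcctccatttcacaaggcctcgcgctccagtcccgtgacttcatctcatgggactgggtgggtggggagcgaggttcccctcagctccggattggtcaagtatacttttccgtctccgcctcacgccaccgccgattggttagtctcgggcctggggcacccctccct

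Both strands were searched for AGATAA, the core read by GATA factors, for TGACNNNGC, the antioxidant response element, and for GAGGAA, a core read by PU.1. Among the 7 windows of the 6 members with bases outside the gene, only that of Steap3 held a match, TTATCT, which is AGATAA on the other strand and begins 44 bases before the window's end. For comparison, 9.99% of 32851 windows of 250 bases held AGATAA, 10.2% held TGACNNNGC and 23.3% held GAGGAA. The comparison is not like for like, because only the members' windows were cut to bases outside the gene. That of Slc11a1 had 61 bases and a second window of Tfrc had 24. These matches are letters in a window and say nothing of binding.

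The targeted gene was checked first. Trim33 had a signal of 172 in TIF1γ Δ/Δ cells and 379 in wild type cells in its brightest probe set, a log2 difference of -1.12. A further probe set gave 34.5 in TIF1γ Δ/Δ and 61.0 in wild type cells, and the sources used here do not say whether either lies in the deleted part. The ratio of 3′ to 5′ control signal is a measure of how far labelling ran along the RNA. For Gapdh it was 7.38 in TIF1γ Δ/Δ and 7.86 in wild type cells. For beta-actin it was 5.54 in TIF1γ Δ/Δ and 5.14 in wild type cells. The Tfrc control gave 5.14 in TIF1γ Δ/Δ and 9.37 in wild type cells, with 5′ signals under the floor on both arrays. Kit, which encodes one of the sorting antigens, gave 495 in TIF1γ Δ/Δ cells and 384 in wild type cells in its brighter probe set (log2 difference 0.39), and 73.5 in TIF1γ Δ/Δ and 33.9 in wild type cells in the other (log2 difference 1.14). Of 10 measured markers of KLS and stem cells, all reached the floor on both arrays. Ly6a, the gene of the Sca antigen, was not analysed here.

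The iron exporter had far less signal in TIF1γ Δ/Δ cells, the phagocyte transporter Slc11a1 was lower with it, and the endosomal reductase Steap3 was higher. The remaining genes of uptake, storage and control lay within 2-fold. Of the 9 genes with their own probe sets, 2 were at least 2-fold lower (22.2%), against 6.01% of 11724 genes measured on at least 1 array. At least 2-fold higher was 1 of the 9 (11.1%), against 2.53% of all genes. Counted by probe set, 3 of the 20 with a measured signal were at least 2-fold lower (15%), against 7.2% of 24593 probe sets, and 1 was at least 2-fold higher (5%), against 2.59%. The median log2 difference of the 9 genes was -0.16, and that of all 11724 genes was 0.00023. The median of the 9 was -0.0011 with quantile scaling. Without probe sets whose identifier carries a suffix for shared or alternative transcripts it was 0.20. That setting leaves out Fth1 and Slc25a37, so the 0.20 is not for the same genes. Since the list was drawn up with earlier results of these arrays known, its shares describe the members and are no evidence about iron genes in general. The plot of signals shows all 27 probe sets, each by its identifier.

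**Figure D1:**
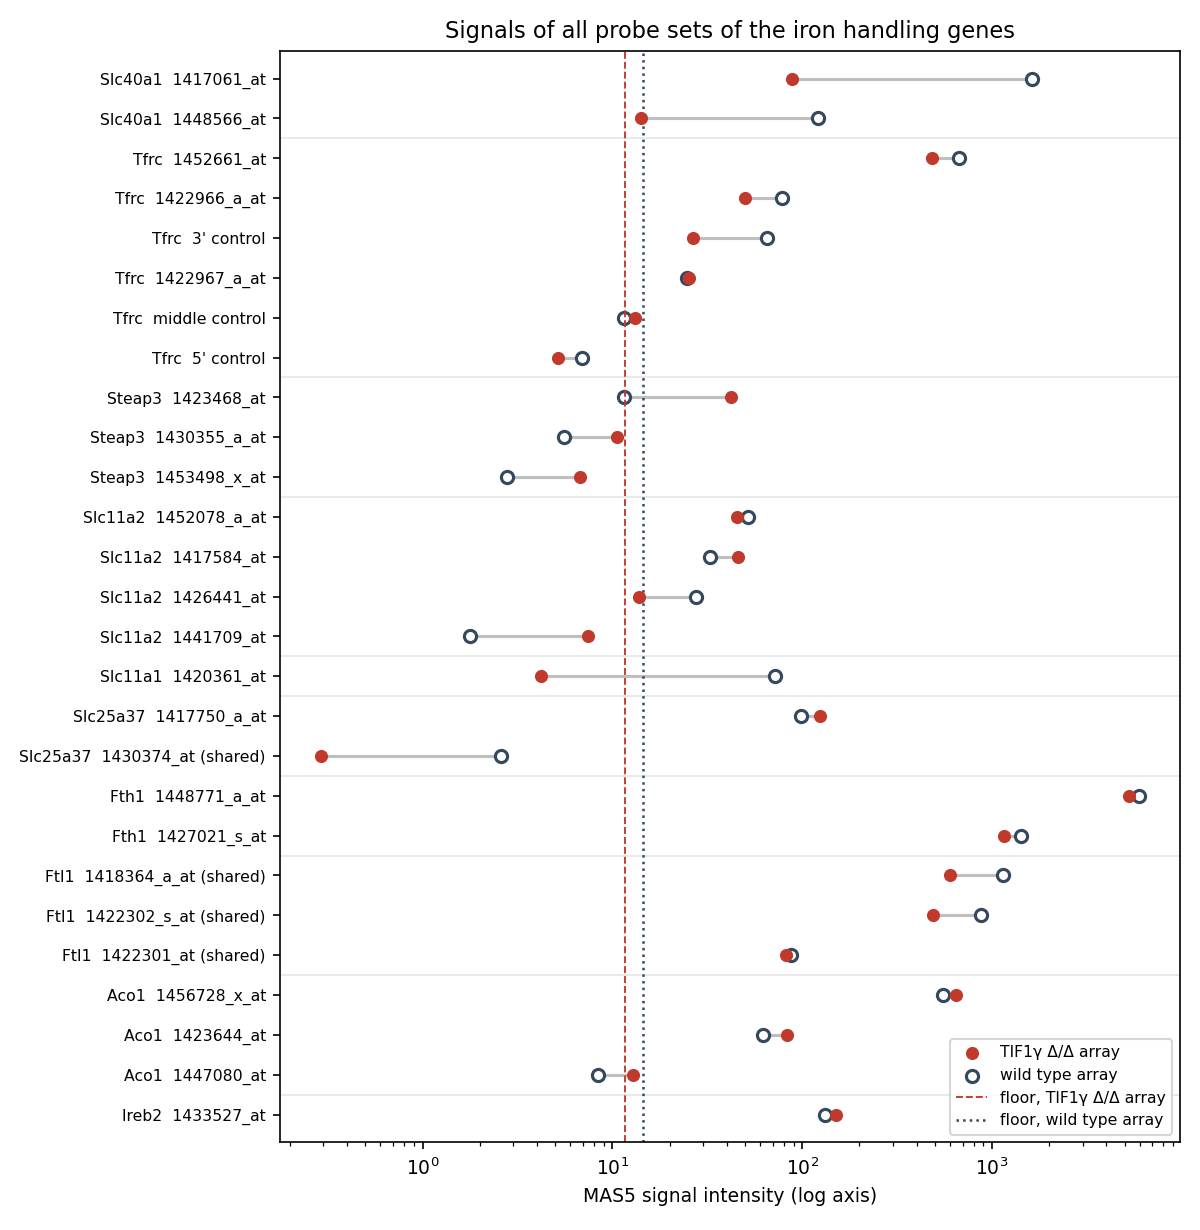
MAS5 signal intensity (log axis) of all 27 probe sets of the 10 genes in TIF1γ Δ/Δ cells (filled) and in wild type cells (open), joined by a line for each probe set, with the floor of each array as a vertical line at 11.7 and 14.4. The longest lines among probe sets above the floor are those of Slc40a1, at 88.5 in TIF1γ Δ/Δ and 1630 in wild type cells in the brighter probe set.

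Slc40a1 encodes ferroportin, the only iron exporter known in mammals, which is abundant in macrophages that recycle red cells. Its brighter probe set gave a signal of 88.5 in TIF1γ Δ/Δ cells and 1630 in wild type cells. The other gave 14.2 in TIF1γ Δ/Δ cells, just above the floor, and 121 in wild type cells. Both were therefore lower in TIF1γ Δ/Δ cells, by a log2 difference of -4.18 (18.1-fold) and -3.07. Among the 10365 genes measured on both arrays, 6 had a more negative log2 difference, and the 5th and 95th percentiles of those genes were -0.97 and 0.85. That rank leaves out genes under the floor in TIF1γ Δ/Δ cells. Some of them had bounds below -4.18, such as Vcam1 (-6.85) and S100a9 (-9.43). Under the 9 alternative settings that apply to a gene, the log2 difference of Slc40a1 ranged between -4.30 and -3.62. For the dimmer probe set the value was -1.98 when the floor was raised to the 65th percentile, and -2.16 with log2(signal + 16) and no floor.

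Beside Slc40a1, macrophage markers were at least 2-fold lower in 14 of 14 measured genes, against 6.01% of all genes. Only 4 of the 14 reached the floor in TIF1γ Δ/Δ cells, so the rest entered through the wild type array alone. The summed signal was 299 in TIF1γ Δ/Δ and 4356 in wild type cells. Erythroid markers were at least 2-fold lower in 10 of 15, with a summed signal of 3466 in TIF1γ Δ/Δ and 7289 in wild type cells. The part of these markers in the result was not tested. In bulk RNA, fewer cells of a type and less RNA per cell cannot be told apart.

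Iron uptake begins with Tfrc, the transferrin receptor, whose level is high in dividing and erythroid cells. Its brightest probe set gave a signal of 483 in TIF1γ Δ/Δ cells and 671 in wild type cells, a log2 difference of -0.45. For the next the signals were 50.1 in TIF1γ Δ/Δ and 78.2 in wild type cells (log2 difference -0.62), and for the dimmest they were 25.4 and 24.8 in the same order (log2 difference 0.057). So 2 of the 3 were lower in TIF1γ Δ/Δ cells and none differed by 2-fold.

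The array also carries 3 control probe sets along the Tfrc transcript. That at the 3′ end gave 26.5 in TIF1γ Δ/Δ and 65 in wild type cells, a log2 difference of -1.27, which is larger than in the ordinary Tfrc probe sets. The middle one gave 13.2 in TIF1γ Δ/Δ cells and 11.5, under the floor, in wild type cells. At the 5′ end both were under the floor, with 5.17 in TIF1γ Δ/Δ and 6.93 in wild type cells. The probe sets of this gene thus did not give a single value for the difference.

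Steap3 reduces ferric to ferrous iron in the endosomes of erythroid precursors, the step before transport to the cytosol. The brightest of 3 probe sets gave 42.0 in TIF1γ Δ/Δ cells and 11.4, under the floor, in wild type cells, so that it was at least 2.96-fold higher. The other 2 were under the floor on both arrays, with signals of 10.5 and 6.72 in TIF1γ Δ/Δ cells and 5.57 and 2.78 in wild type cells. No fold is given for these. The result rests on 1 dim probe set: with the floor at the 65th instead of the 50th percentile its log2 difference was 0.16, against 1.57 here.

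Slc11a2 (DMT1) and Slc11a1 (NRAMP1) are related metal ion transporters with different sites of action. Slc11a2 moves ferrous iron out of the endosome of the transferrin cycle, and Slc11a1 sits in the phagosome membrane of macrophages and neutrophils, where it withholds metal from microbes. Slc11a1 had 1 probe set, with a signal of 4.20, under the floor, in TIF1γ Δ/Δ cells and 71.6 in wild type cells. It was thus at least 6.04-fold lower, a bound that ranged over log2 differences of -3.31 to -1.23 in the alternative settings. Beside it, the macrophage markers and 11 of 12 neutrophil markers were at least 2-fold lower, against 6.01% of all genes. Only 5 of the 12 neutrophil markers reached the floor in TIF1γ Δ/Δ cells.

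For Slc11a2 the probe sets disagreed. The brightest gave 45.1 in TIF1γ Δ/Δ and 51.6 in wild type cells (log2 difference -0.17). A similarly bright one gave 46.0 in TIF1γ Δ/Δ and 32.5 in wild type cells (log2 difference 0.53), and a dimmer one gave 13.8 and 27.6 in the same order (log2 difference -0.98). The fourth was under the floor on both arrays, at 7.47 in TIF1γ Δ/Δ and 1.77 in wild type cells. Which direction Slc11a2 takes therefore depends on the probe set, and no difference reached 2-fold. Without suffixed probe sets the gene's log2 difference was 0.53.

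Slc25a37, mitoferrin 1, brings iron into the mitochondria of erythroid precursors for haem and iron-sulphur clusters. Its own probe set gave 123 in TIF1γ Δ/Δ cells and 98.3 in wild type cells, a log2 difference of 0.35. A second is shared with Gm16867 and was under the floor on both arrays, at 0.29 in TIF1γ Δ/Δ and 2.58 in wild type cells. The mitochondrial importer was thus slightly higher, and not lower with the exporter.

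Ferritin is built from Fth1, the heavy chain that oxidises iron on entry, and Ftl1, the light chain that favours its mineral core. Fth1 was close to equal on the arrays: the brighter probe set gave 5235 in TIF1γ Δ/Δ and 5935 in wild type cells (log2 difference -0.16), and the dimmer gave 1161 and 1417 in the same order (log2 difference -0.26). The probe sets for the light chain are shared with Ftl1-ps2, a related sequence, so that signal from Ftl1 and from Ftl1-ps2 cannot be told apart. The brightest gave 598 in TIF1γ Δ/Δ and 1135 in wild type cells, a log2 difference of -0.90. The next gave 488 in TIF1γ Δ/Δ and 878 in wild type cells (log2 difference -0.82). The dimmest, which is also assigned to microRNA genes, gave 81.9 and 87.7 in the same order (log2 difference -0.076).

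Both brighter light chain probe sets were thus lower by more than either heavy chain probe set, but stayed within 2-fold. Among genes measured on both arrays, 5.92% had a log2 difference below that of the brightest light chain probe set and 35.3% below that of Fth1. No error exists for the gap between the chains, since each rests on the same 2 arrays.

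Aco1 and Ireb2 encode the iron regulatory proteins IRP1 and IRP2. When iron is plentiful IRP1 holds an iron-sulphur cluster and works as a cytosolic aconitase, whereas IRP2 is degraded. For Aco1, the brightest probe set gave 648 in TIF1γ Δ/Δ and 554 in wild type cells (log2 difference 0.25), and the next gave 82.9 and 61.9 in the same order (log2 difference 0.45). The third Aco1 probe set gave 12.8 in TIF1γ Δ/Δ cells and 8.38, under the floor, in wild type cells, too dim to bound a fold. Ireb2 gave 150 in TIF1γ Δ/Δ and 132 in wild type cells in its only probe set, a log2 difference of 0.20. Both were slightly higher in TIF1γ Δ/Δ cells, by less than the probe set scatter of 0.45 (SD on the log2 scale, pooled over 4534 genes with several probe sets), a measure of probe sets and not of mice.

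**Figure D2:**
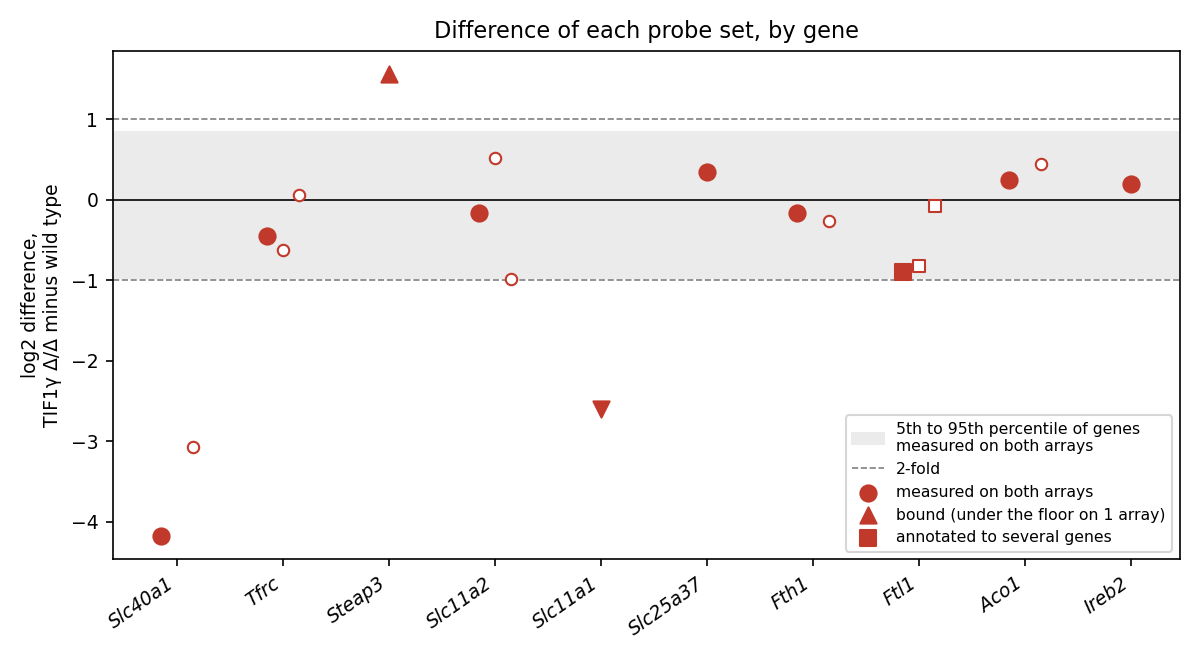
Log2 difference, TIF1γ Δ/Δ minus wild type, of each probe set with a measured signal (large filled symbols, the brightest of each gene; squares, shared with other genes; triangles, bounds), with the span between the 5th and 95th percentiles of 10365 genes (-0.97 to 0.85) shaded. Slc40a1 (-4.18 and -3.07) and Slc11a1 (bound at -2.60) lie below it and Steap3 (bound at 1.57) above it, and 1 probe set of Slc11a2 (-0.98) is just below its lower edge. The Tfrc control probe sets and the third Aco1 probe set, too dim to bound a fold, are not plotted.

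Beyond the members, 81 further genes of iron handling were followed in 7 lists, of which 74 had a probe set of their own and 61 were measured. At least 2-fold lower were 10 of the 61 (16.4%), against 6.01% of all genes, and none was at least 2-fold higher, against 2.53%. The median log2 difference was -0.19 over the 61 genes and -0.048 over the 51 measured on both arrays. Of the 10 lower genes, 5 (Hmox1, Cd163, Spic, Ltf and Lcn2) also stand in the macrophage or neutrophil marker lists. Without genes of the marker lists, 5 of 56 were at least 2-fold lower (8.93%), with a median of -0.054.

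Genes at least 2-fold lower were most numerous in the list of haem uptake and recycling, with 6 of 11 measured, against 6.01% of all genes. Of these, Hmox1, Spic and Lrp1 were measured on the wild type array alone. The list's median log2 difference was -1.02, or -0.36 over the 7 genes measured on both arrays. With log2(signal + 16) and no floor the list's median was -0.35, over all 13 of its genes. That median takes in genes under the floor on both arrays, so it is not for the same genes as -1.02. Hmox1, the inducible haem oxygenase that frees iron from haem, gave 1.48, under the floor, in TIF1γ Δ/Δ cells and 63.9 in wild type cells, at least 5.40-fold lower. Spic, a transcription factor needed for red pulp macrophages in mice, was at least 7.64-fold lower, with signals of 8.48 in TIF1γ Δ/Δ and 90.5 in wild type cells and the same direction in both of its probe sets. Cd163, the haemoglobin scavenger receptor, gave 75.8 in TIF1γ Δ/Δ and 156 in wild type cells (log2 difference -1.02).

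The haemoglobin-binding plasma protein gene Hp gave 40.1 in TIF1γ Δ/Δ cells and 516 in wild type cells, a log2 difference of -3.66. Blvrb, a biliverdin reductase of red cells, gave 78.2 in TIF1γ Δ/Δ and 515 in wild type cells (log2 difference -2.70). Lrp1, which takes up haem bound to haemopexin, was at least 2.38-fold lower, at 8.53 in TIF1γ Δ/Δ and 28.2 in wild type cells. These 3 complete the lower genes of the list, whose other 5 measured genes lay within 2-fold.

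Among 4 measured secreted iron binders and their receptor, 2 were at least 2-fold lower, against 6.01% of all genes. Ltf, lactoferrin, gave 0.48 in TIF1γ Δ/Δ and 747 in wild type cells, at least 63.1-fold lower, and Lcn2, which binds iron-laden siderophores, gave 9.64 and 2225 in the same order, at least 188-fold lower. Both are proteins of neutrophil granules and both were under the floor in TIF1γ Δ/Δ cells.

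Of 7 measured genes of storage, chaperones and control, 1 was at least 2-fold lower, against 6.01% of all genes. Fbxl5, the iron-sensing ligase subunit that marks IRP2 for degradation, gave 166 in TIF1γ Δ/Δ and 349 in wild type cells in its only probe set, a log2 difference of -1.05. The iron chaperones Pcbp1 (log2 difference 0.46) and Pcbp2 (log2 difference 0.31) lay within 2-fold, and the list's median was 0.17. In the list of systemic control 1 of 4 measured genes was at least 2-fold lower, against the same 6.01%. Hfe, which helps hepatocytes sense transferrin-bound iron, gave 85.1 in TIF1γ Δ/Δ and 225 in wild type cells (log2 difference -1.38), and its dimmer probe set had a bound in the same direction (log2 -0.85). Neo1, a co-receptor of the hepcidin pathway, had a log2 difference of -0.83. Hamp, the hepcidin gene, was under the floor on both arrays.

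Genes that use iron inside the cell, each read from its brightest probe set, lay within 2-fold in the lists examined. So did 10722 of all 11724 measured genes, so this does not set these lists apart. None of 19 measured genes of mitochondrial carriers and iron-sulphur clusters reached 2-fold in either direction, and their log2 differences ran between -0.80 and 0.49 with a median of -0.18. Glrx5, a glutaredoxin that passes clusters on, was at -0.20 and Hspa9, the mitochondrial chaperone of cluster transfer, at 0.39. None of 8 genes of cytosolic iron-sulphur assembly reached 2-fold either, with a median of 0.042 whose sign changed between settings, Ciao2a at -0.44 and Ciao2b at -0.29.

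By their brightest probe sets, the 8 measured genes of the transferrin cycle and endosome lay within 2-fold too, at a median log2 difference of -0.14. Of all genes, 6.01% were at least 2-fold lower and 2.53% at least 2-fold higher. Snx3, which returns the transferrin receptor to the surface, was at -0.035. Vps35, a retromer subunit, was at -0.42 in its brighter probe set, while the other gave 9.31, under the floor, in TIF1γ Δ/Δ cells and 30.8 in wild type cells, at least 2.60-fold lower. The largest positive value among these 8, chosen after its value was seen, was that of the metal importer gene Slc39a14, at 102 in TIF1γ Δ/Δ and 54.7 in wild type cells (log2 difference 0.92). Transferrin itself was read only by a probe set shared with Srprb, which gave 311 in TIF1γ Δ/Δ and 296 in wild type cells.

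**Figure D3:**
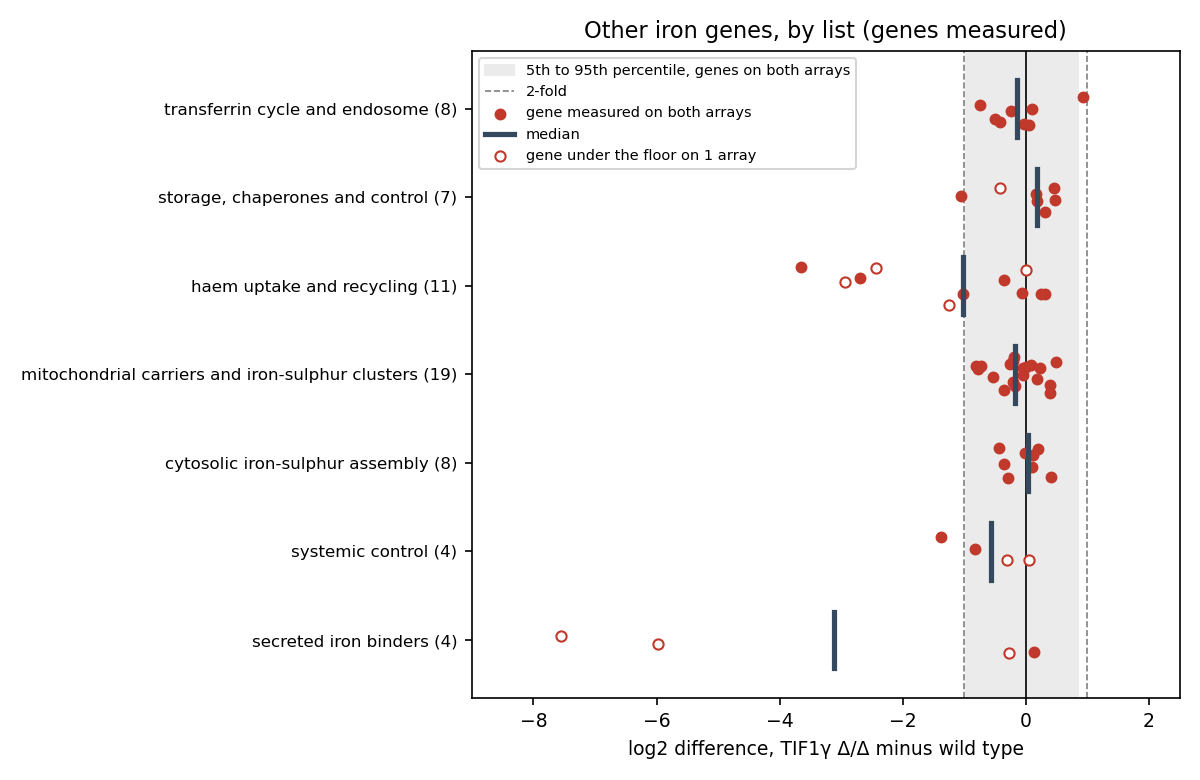
Log2 difference, TIF1γ Δ/Δ minus wild type, of the other iron genes in 7 lists (points; open where 1 array was under the floor), with each list's median as a bar, the number of measured genes in brackets and the span between the 5th and 95th percentiles of genes measured on both arrays shaded. Points beyond 2-fold lie on the lower side, 6 of them in the list of haem uptake and recycling, whose median is -1.02. None of the 19 mitochondrial genes passes 2-fold. Of all genes, 6.01% were at least 2-fold lower and 2.53% at least 2-fold higher.

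Markers of mature cells differed along with these genes in these cells, which had been sorted as lineage-negative. Of the 16 macrophage markers 14 were measured, and all 14 were at least 2-fold lower, against 6.01% of all genes. Only 4 of these reached the floor in TIF1γ Δ/Δ cells, against 14 in wild type cells, so that 10 entered through the wild type array alone. The median log2 difference was -3.22 over the 14 and -2.22 over the 4 measured on both arrays. Their summed signals, given beside Slc40a1, ran over 16 genes. Vcam1, an adhesion molecule of marrow macrophages, gave 7.66 in TIF1γ Δ/Δ cells and 1364 in wild type cells. C1qa, C1qb and Cd5l were also under the floor in TIF1γ Δ/Δ cells, at 0.50, 5.97 and 5.64, against 247, 503 and 401 in wild type cells.

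Of 12 measured neutrophil markers, 11 were at least 2-fold lower, against 6.01% of all genes. The median of the 12 was -6.72, or -7.46 over the 5 measured on both arrays. The summed signal of the list over 13 genes was 4109 in TIF1γ Δ/Δ and 40170 in wild type cells. The marker within 2-fold was Mpo, named after its value was seen, at 3840 in TIF1γ Δ/Δ and 5497 in wild type cells. S100a9 gave 9.92 in TIF1γ Δ/Δ and 8147 in wild type cells, Camp gave 12.7 and 3951 and Chil3 gave 7.30 and 3177 in the same order. Erythroid markers were at least 2-fold lower in 10 of 15 measured genes, against 6.01% of all genes. Their median was -1.65, or -1.52 over the 12 measured on both arrays. The 5 within 2-fold, named after their values were seen, were Gata1, Gfi1b, Car2, Sptb and Epb42. Slc4a1, the red cell anion exchanger, gave 17.7 in TIF1γ Δ/Δ and 271 in wild type cells, Alas2 gave 0.40 and 68.6, Trim10 gave 2.07 and 97.7 and Rhd gave 41.6 and 200 in the same order. The brightest alpha globin probe set, shared by Hba-a1 and Hba-a2 and chosen after its value was seen, gave 152 in TIF1γ Δ/Δ and 5690 in wild type cells.

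Markers of KLS and stem cells had a median of 0.31, with Cd34 at 0.76 and Procr at -0.60. At least 2-fold higher were 2 of 10, Gata2 (log2 difference 1.40) and Tek (log2 difference 1.02), against 2.53% of all genes. The second Gata2 probe set gave 193 in TIF1γ Δ/Δ and 175 in wild type cells, a log2 difference of 0.16, so that its call rests on 1 of 2 probe sets. Lymphoid markers, of B, T and NK cells, stood at a median of -0.66, or -0.48 over the 3 measured on both arrays. Among 7 measured, Ms4a1 (at least 10.7-fold), Gzma (at least 4.26-fold) and Klrd1 (log2 difference -1.93) were at least 2-fold lower, against 6.01% of all genes. Cd8a was bounded at -0.66 in its brightest probe set. Another Cd8a probe set gave 2.30 in TIF1γ Δ/Δ and 30.1 in wild type cells, a bound at -1.35, and the rest were under the floor on both arrays.

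Slc40a1 is known from macrophages and erythroid precursors, and Slc11a1, Hmox1, Spic and Cd163 from macrophages. Their values stand beside markers that were lower on the same pair of arrays. Hmox1, Spic and Cd163 are themselves in the macrophage marker list, so for them this is no separate observation. Tfrc, Steap3, Slc25a37 and Slc11a2 also act in erythroid precursors. Erythroid markers were at least 2-fold lower in 10 of 15 measured genes, against 6.01% of all genes. Of the iron genes just named, Steap3 was at least 2.96-fold higher and Slc25a37 was at a log2 difference of 0.35. Tfrc was at -0.45, and Slc11a2 differed in direction between probe sets. What part the markers' cells have in the iron genes' values was not tested. With 1 array a genotype, the genotype cannot be told apart from a difference between the sorts.

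**Figure D4:**
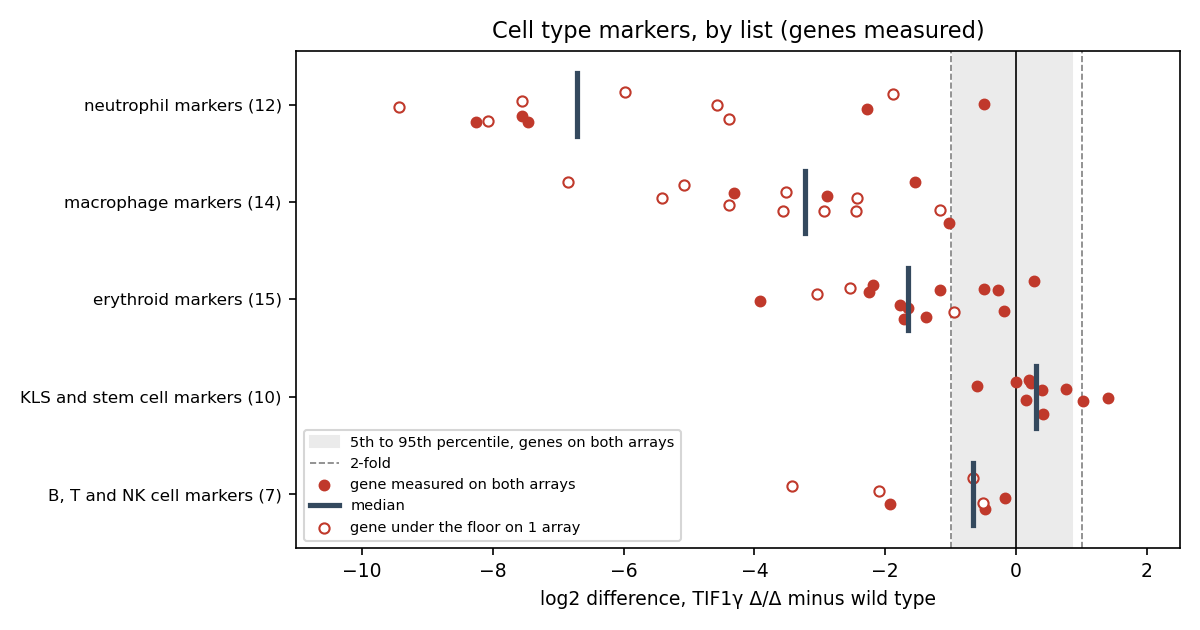
Log2 difference, TIF1γ Δ/Δ minus wild type, of markers of 5 kinds of cells (points; open where 1 array was under the floor), with each list's median as a bar, the number of measured genes in brackets and the span between the 5th and 95th percentiles of genes measured on both arrays shaded. Medians are -6.72 for neutrophil, -3.22 for macrophage and -1.65 for erythroid markers, and 0.31 for KLS and stem cell markers.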

How the data were processed

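Total RNA of sorted KLS cells was hybridised to 1 Affymetrix array a genotype. The deposited values are signal intensities of probe sets, not logged, and the submitters' processing notes name MAS5. The sources used here give neither its version nor detection calls. The mean after trimming 2% at each end was 100.0 on both arrays, so arrays had been scaled. Each array's group came from its genotype label.

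The 64 control probe sets were left out except for Tfrc and the end ratios. Of the rest, 34945 had 1 annotated gene, 932 several and 9160 none; symbols were updated by Entrez identifier for 34741. A gene was read from its brightest probe set (highest mean log2 signal). Bounds entered list medians, including those too dim to give a direction, which were not counted. MAS5 subtracts mismatch signal, which makes low signals noisy. Calls are by size (2-fold) alone, without a test.

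The members and the lists were chosen with earlier results of these data known. Named are all members, list genes at least 2-fold apart (with fewer than 2, also the list's 2 brightest), up to 4 markers a list with the largest difference, Kit, Ly6a and Trim33. With 2 arrays a pattern is a single difference, so no gene of like pattern is named. Alternatives covered scaling, floor, pseudocount, probe set rule and fold. The scripts were tested on simulated data. Python 3.11.15, numpy 2.4.6, pandas 2.3.3, statsmodels 0.14.6 and matplotlib 3.10.9 were used.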

Additional observations from a re-analysis of the deposited data

How the results depend on the processing

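In all, 11 alternatives were run, each result under those that apply to it. Each changed 1 choice, except that log2(signal + 16) also replaced the floor. No value at least 2-fold apart changed sign. Of 420 values, 364 stayed within the scatter of probe sets (for a list's median, that scatter divided by the square root of the number of measured genes) or, for counts, within 1.5 times. The members' median log2 difference (-0.16) was -0.0011 with quantile scaling and 0.20 without suffixed probe sets, so its sign is not settled. The 0.20 leaves out Fth1 and Slc25a37 and is not for the same genes. For the other iron genes the median was -0.049 with log2(signal + 16) and no floor. That setting takes in all 74 with a probe set of their own, against 61 measured. With the floor at the 65th percentile, no member gene and no member probe set (0 and 0) was at least 2-fold higher, and 412 of all genes were lower and 170 higher. With log2(signal + 16) and no floor, 426 genes were lower and 166 higher, and with the mean of all probe sets 176 were higher. At 1.5-fold, 7 member probe sets and 1791 of all genes were lower, and 1 other iron gene and 1579 of all genes higher. At 3-fold, member genes and probe sets higher numbered 0 and 0, other iron genes lower 6, and all genes 266 lower and 26 higher. The signs for Slc40a1, Slc11a1, Tfrc, Fth1, Steap3, Slc25a37, Aco1 and Ireb2 were the same under each alternative that gave a value, and that of Slc11a2 under 8 of 9. No paired analysis was possible because each genotype had 1 array. The number of arrays limits precision, and signals near the floor are the least certain.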
